A study of Bos taurus with 56 samples.

Results

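Chromatin accessibility in day 14 elongating cattle embryos was compared with that in morulae. The comparison used the 372509 peaks of the day 14 list and the 88858 peaks of the morula list, 461367 of the 673059 peaks in the 11 lists of the series. All peaks of both lists entered. They were split into shared peaks, with an overlap of 1 bp or more between the lists, and peaks found in 1 of the 2 lists only. The groups were day 14 elongating embryos (6 libraries) and morulae without an in vivo label (6 libraries), all from Bos taurus. The labels give no sex, breed, treatment or way of production for either group, and each library came from a pool of embryos. The series measured 56 ATAC-seq libraries in 11 groups, from germinal vesicle (GV) and metaphase II (MII) oocytes to day 14, and the authors merged the peaks of a group's libraries into 1 list.

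ATAC-seq uses a transposase that cuts DNA where chromatin is open, so that sequenced fragments pile up as peaks over promoters, enhancers and other accessible elements. A morula is a compact ball of cells that have not yet formed the blastocyst cavity, and in cattle it comes shortly after the major activation of the embryonic genome at the 8-cell to 16-cell stage. By day 14 the hatched conceptus is elongating in the uterus. Most of it is then trophectoderm, the layer that will form the fetal part of the placenta, beside hypoblast and the embryonic disc, so a day 14 pool holds several cell types. No genome of the files' build, UMD3.1, was used here, so peaks are described by position and width, and not by gene or sequence. The lists hold no scores or read counts, sequencing depth is unknown, and with 1 merged list per group no spread between libraries could be computed. No p-value is given for that reason, and differences are between 2 lists. Where a share is given with an interval, it is a 95% exact Clopper-Pearson interval that covers counting error only.

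The day 14 list was 4.19 times as long as the morula list, but its peaks were narrower. Median width was 216 bp at day 14 and 525 bp in the morula, and the lists covered 124 Mb and 65.7 Mb, a ratio of 1.89. The excess lay mostly in narrow peaks, since 45.8% of the day 14 peaks and 1.16% of the morula peaks were under 200 bp wide. Broad peaks, meaning here those at least as wide as the median of all peaks in the 11 lists, numbered 108850 at day 14 and 71395 in the morula, a ratio of 1.52. Above 1000 bp the order was reversed, because the day 14 list held 14054 peaks from 1000 to under 2000 bp and 1983 from 2000 to under 4000 bp, against 15667 and 3449 in the morula list. Peaks of 4000 bp or more numbered 93 at day 14 and 278 in the morula. The lists also differed in their narrowest peak, 125 bp at day 14 and 161 bp in the morula, and the part of that bound in the width difference was not tested.

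Of the day 14 peaks, 45661 (12.3%, interval 12.2% to 12.4%) overlapped a morula peak, and of the morula peaks 40688 (45.8%, interval 45.5% to 46.1%) overlapped a day 14 peak. This left 326848 peaks at day 14 only and 48170 in the morula only. Counted in bases, both lists shared 21.9 Mb, which was 17.7% of the bases in day 14 peaks and 33.3% of the bases in morula peaks. Day 14 peaks covered 4.66% of the 2661 Mb spanned by the lists, so morula peaks held 7.15 times as large a share of day 14 bases as the whole span did. With both lists limited to broad peaks, 24.8% of the day 14 peaks (interval 24.5% to 25%) and 36.3% of the morula peaks (interval 35.9% to 36.6%) were shared.

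Shared peaks were the wide ones in both lists. In the day 14 list the shared peaks had a median width of 482 bp and a middle range (25th to 75th percentile) of 248 to 913 bp, and the unshared peaks a median of 201 bp and a range of 158 to 323 bp. In the morula list the medians were 719 bp for shared and 428 bp for unshared peaks, with ranges of 427 to 1200 bp and 325 to 669 bp. Of the day 14-only peaks 24.3% were broad, against 29.2% of the whole day 14 list, and of the morula-only peaks 74.1%, against 80.3% of the whole morula list, so the gap between the unshared classes was close to that between the lists. A width of 1000 bp was reached by 1.95% of the day 14-only and 11.8% of the morula-only peaks.

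**Figure D1:**
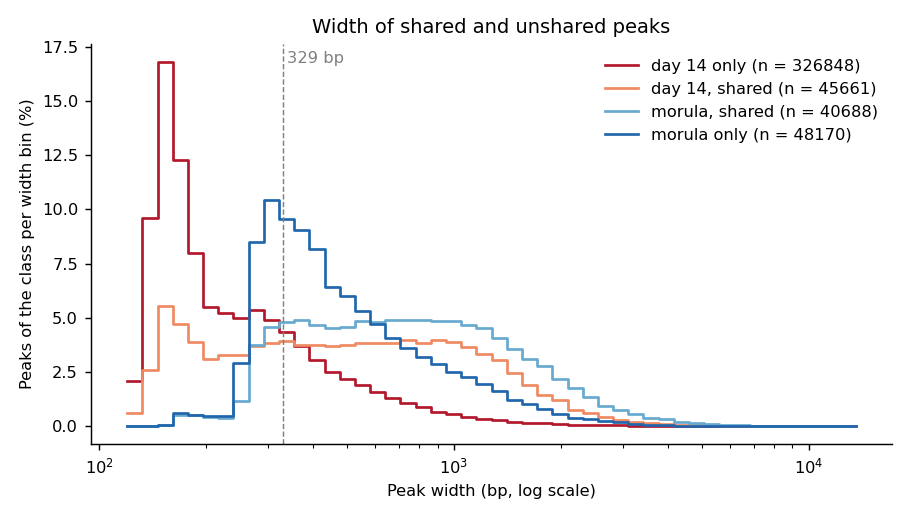
Width of the peaks (bp, log scale) against the percentage of each class that falls in a width bin, for day 14-only, shared day 14, shared morula and morula-only peaks, with a dashed line at the median width of all 11 lists. Day 14-only peaks (median 201 bp) pile up left of the line, the morula-only peaks (median 428 bp) peak close to it, and both shared classes spread over wider peaks.

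The share with a partner in the other list grew with width. Among day 14 peaks it was 4.78% under 200 bp, 14% for broad peaks under 500 bp, 30.4% from 500 to under 1000 bp, 59.3% from 1000 to under 2000 bp and 78.5% at 4000 bp or more (73 of 93, interval 68.8% to 86.3%). Among morula peaks it was 27.6% from 200 bp to the series median, 33.1% for broad peaks under 500 bp, 50.6% from 500 to under 1000 bp, 68.2% from 1000 to under 2000 bp and 92.1% at 4000 bp or more (256 of 278, interval 88.3% to 95%). A wide peak meets a partner more easily than a narrow one wherever it lies, and this was not separated from the values. The 1031 morula peaks under 200 bp broke the order, with 42.2% shared (interval 39.2% to 45.3%).

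**Figure D2:**
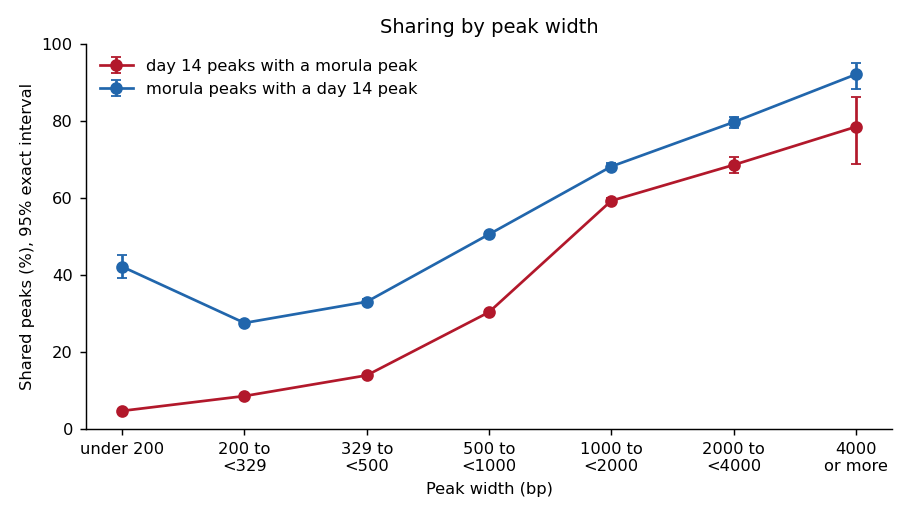
Percentage of day 14 peaks with a morula peak and of morula peaks with a day 14 peak in 7 bins of peak width (bp), with 95% exact intervals. Both lines climb from the broad peaks on, to 78.5% and 92.1% at 4000 bp or more, and the narrowest morula bin stands at 42.2%, above the next one at 27.6%.

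Most overlaps joined 1 peak with 1 peak. There were 32556 such pairs, 71.3% of the shared day 14 peaks and 80% of the shared morula peaks. In these pairs the day 14 peak had a median width of 530 bp and the morula peak 672 bp, and the day 14 peak was the narrower one in 62.7% of pairs. Their centres lay a median of 142 bp apart, with a middle range of 64.5 to 251 bp. The day 14 peak lay wholly inside the morula peak in 34.5% of pairs, the morula peak inside the day 14 peak in 20.4%, and in 45.1% they overlapped in part. The median overlap was 352 bp, and in 49.2% of pairs it made up at least 50% of both peaks. Among the shared day 14 peaks 1513 (3.31%) had 2 or more partners in the morula, and among the shared morula peaks 5535 (13.6%) had 2 or more at day 14.

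The morula peaks with most partners overlapped 6 day 14 peaks each. There were 17 of them, with a median width of 5493 bp. The 5 widest lay on chromosome 5 (101706382 to 101714094), chromosome 21 (55874002 to 55880620 and 69805830 to 69812028), chromosome 2 (96467716 to 96474179) and chromosome 18 (57622760 to 57629027). All 5 had peaks in the 8-cell, 16-cell and in vivo morula lists and were missing from the oocyte and blastocyst lists, and those on chromosomes 2 and 18 were also in the 4-cell list.

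The longest overlap of a day 14 and a morula peak was 7144 bp, on chromosome 17, where a day 14 peak of 14806 bp enclosed the morula peak from 25035334 to 25042477. On chromosome 3 a day 14 peak from 8102237 to 8112144 enclosed a morula peak of 6206 bp, in a place with peaks in all 11 lists. A further 2 lay close together on chromosome 17, where the day 14 peaks from 50909666 to 50915517 and from 50865977 to 50871056 shared 5852 and 5076 bp with the morula. The remaining one of the 5 longest, on chromosome 23, had a day 14 peak from 7234917 to 7240504 and a morula peak of 7578 bp, and was otherwise found in the 8-cell, 16-cell and in vivo morula lists. All 3 places on chromosome 17 had peaks in every embryo list and in neither oocyte list.

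Most peaks of one list only lay over 1000 bp from the other list. The median gap from a day 14-only peak to the nearest morula peak was 10995 bp, and from a morula-only peak to the nearest day 14 peak it was 3956 bp. Within 1000 bp lay 25238 (7.72%) of the day 14-only peaks and 10743 (22.3%) of the morula-only peaks, and within 250 bp 2.07% and 7.70%. These shares follow the spacing of the other list, in which the median gap between neighbouring peaks was 1731 bp at day 14 and 10914 bp in the morula.

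The widest day 14-only peaks were of 2 kinds. Those on chromosome 17 (25112953 to 25122770, 9818 bp, and 25051874 to 25060934, 9061 bp) lie within 100 kb of the longest overlap and were present in the in vivo morula list and both blastocyst lists, and the second also at the 16-cell stage. The other 3, on chromosome 26 (51474440 to 51481927, 7488 bp), chromosome 18 (49156387 to 49163449, 7063 bp) and chromosome 15 (42767077 to 42773976, 6900 bp), were in no other list. The nearest morula peaks to these 3 were 22974, 9261 and 18136 bp away.

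Wide morula-only peaks looked different, since each of the 5 widest was present in the 16-cell and in vivo morula lists. They lay on chromosome 12 (58059871 to 58069049, 9179 bp), chromosome 6 (36572314 to 36580287, 7974 bp, and 64766010 to 64772134, 6125 bp), chromosome 8 (91595167 to 91601120, 5954 bp) and chromosome 1 (85886778 to 85892253, 5476 bp). All but the second on chromosome 6 were in the 8-cell list too, and none was in an oocyte, 2-cell, 4-cell or blastocyst list. The nearest day 14 peak was 35759 bp away on chromosome 12 and 611 bp away on chromosome 8. Among morula-only peaks in no other list the widest was 3068 bp on chromosome 15 (70328598 to 70331665), followed by 2496 bp on chromosome 9 (59876157 to 59878652) and 2473 bp on chromosome 6 (115126937 to 115129409).

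The same contrast ran through the wide unshared peaks as a whole. Of the day 14-only peaks of 1000 bp or more, 5022 of 6365 (78.9%) were in none of the other 10 lists. Of the morula-only peaks of that width, 702 of 5700 (12.3%) were in none. Over all widths, 93.0% of the day 14-only peaks and 57.5% of the morula-only peaks were in no other list. The lists between and before these 2 stages differ in number, with the 8-cell, 16-cell and in vivo morula lists on the morula's side in development and no long list other than that of day 14 after it, so the shares cannot be told apart from which stages were sampled.

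Presence in the 6 earlier lists was not used to form the classes, but it is not independent of them. Wide peaks are found more easily in any list. The morula list that splits the day 14 peaks also overlaps the 16-cell list, with 33311 morula peaks in it. Part of the contrast between the day 14 classes is therefore built in. Shared day 14 peaks were present at the 16-cell stage in 48.7% (interval 48.2% to 49.2%) and day 14-only peaks in 2.96% (interval 2.91% to 3.02%). In the morula list the 16-cell shares were 51.4% (interval 50.9% to 51.9%) for shared and 25.8% (interval 25.4% to 26.2%) for unshared peaks, a difference of 25.6 percentage points. At the 8-cell stage shared and unshared peaks were present in 34.6% and 2.3% of cases in the day 14 list, and in 36.8% and 16.1% in the morula list. The oocyte and cleavage lists before the 8-cell stage are short, and presence there was low throughout. Shared morula peaks were in the GV oocyte list in 3.26%, in the MII oocyte list in 0.462%, in the 2-cell list in 2.06% and in the 4-cell list in 4.36% of cases. Unshared morula peaks were in these lists in 0.243%, 0.0353%, 0.139% and 0.519%.

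**Figure D3:**
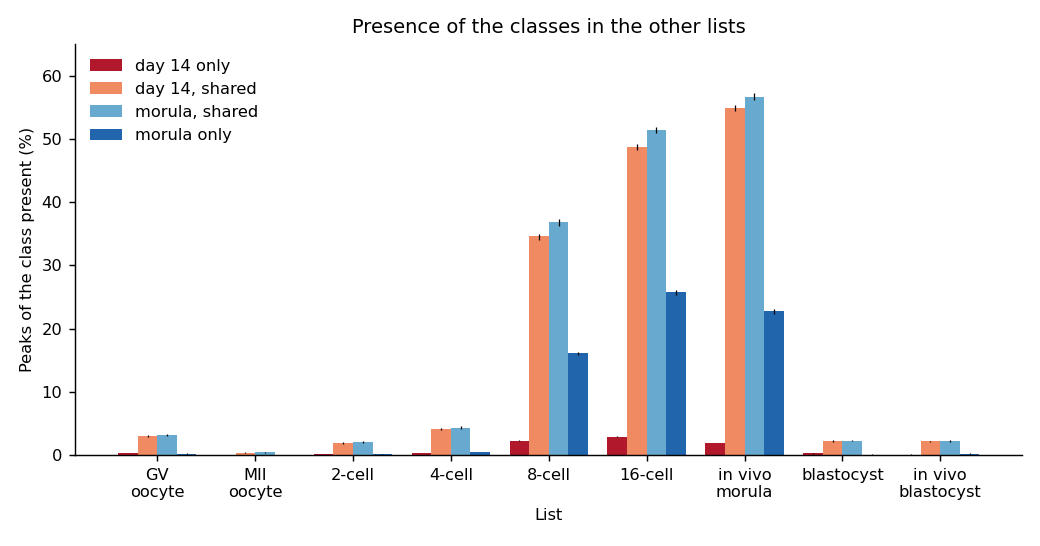
Percentage of day 14-only, shared day 14, shared morula and morula-only peaks (bars, with 95% exact intervals) that overlap a peak of each of the other 9 lists. Both shared classes reach 48.7% and 51.4% at the 16-cell stage, the morula-only peaks 25.8% and the day 14-only peaks 2.96%.

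The difference between shared and unshared morula peaks had the same direction in every width group. When morula peaks were split into 5 groups of nearly equal number by width, 20.9% of the shared and 12.6% of the unshared peaks were present at the 16-cell stage in the narrowest group. In the middle group (438 to 640 bp) the shares were 36.9% and 23.9%, and in the widest (1053 bp or more) 80.3% and 63.1%. Among all broad morula peaks they were 55.6% and 30.4%. For day 14 peaks, where part of the contrast is built in by the split, 29.9% of shared and 1.70% of unshared peaks were present in the narrowest group. In the widest the shares were 60.1% and 5.68%.

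The more of the earlier lists a morula peak was found in, the more often it had a day 14 peak. With none of the 6 earlier lists, 34.0% of 50483 morula peaks were shared with day 14. The share was 52.9% for presence in 1 earlier list, 66.7% for 2, 93.9% for 3, 96.0% for 4 and 97.5% for 5. All 111 morula peaks found in all 6 earlier lists had a day 14 peak (interval 96.7% to 100%). Median width changed along the same scale, from 413 bp with no earlier list to 650, 1000 and 1304 bp with 1, 2 and 3. With 4, 5 and 6 it was 1099, 774 and 1052 bp. Day 14 peaks had median widths of 203, 327, 702 and 1092 bp with 0, 1, 2 and 3, and 924, 617 and 901 bp with 4, 5 and 6. Sharing by number of earlier lists was not split by width. Read from day 14, 6.16% of the 329699 peaks with no earlier presence were in the morula list, against 43.9% with presence in 1 earlier list and 83.2% with 2. The share was 91.5% with 3, 89.1% with 4, 92.9% with 5 and 98.3% with 6 (115 of 117). The widest morula peaks present in all earlier lists lay on chromosome 3 (8102289 to 8108494), chromosome 20 (55749913 to 55754734) and chromosome X (89972215 to 89976323), and each had peaks in all 11 lists.

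For 31.3% of the shared morula peaks the first earlier list to hold them was the 8-cell list, and for 19.4% the 16-cell list. The GV oocyte list came first for 3.26%, and 42.1% were in no earlier list. Lists before the 8-cell stage hold 730 to 5810 peaks, against 59186 at the 8-cell stage. A first listing therefore does not date when a region opened. Of the morula-only peaks 15.7% were first in the 8-cell and 14.2% in the 16-cell list, and 69.2% were in no earlier list. For the day 14-only peaks, 94.7% were in no earlier list.

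Presence in the in vivo morula list went with presence at day 14, with or without the stages around genome activation. Of the 12607 morula peaks in the 8-cell, 16-cell and in vivo morula lists together, 82.2% (interval 81.6% to 82.9%) were shared with day 14. Of the 38916 in none of these 3 lists, 28.3% (interval 27.9% to 28.8%) were. Median width was 1260 bp in the first set and 382 bp in the second, but within the widest group of morula peaks the shares were 84.8% and 44.7%, and within the narrowest 63.2% and 23.7%. Morula peaks in the 8-cell and 16-cell lists without an in vivo morula peak were shared in 41.8% of 5617 cases, below the 45.8% of all morula peaks, and those in the in vivo morula list alone of the 3 in 53.7% of 12135 cases (interval 52.8% to 54.6%). At day 14, peaks in all 3 lists overlapped a morula peak in 97.2% of 10907 cases, and peaks in none of them in 4.11% of 319763.

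Few of the shared peaks were recorded at the blastocyst stage between the 2 groups. Both blastocyst lists are short, with 2587 peaks in vivo and 3397 without that label, and 1151 of the shared morula peaks (2.83%) were in at least 1 of them, 711 in both. Of the morula-only peaks 148 (0.307%) were in at least 1, and of the day 14-only peaks 1117 (0.342%). The shared morula peaks seen in a blastocyst list had a median width of 647 bp, close to the 719 bp of all shared morula peaks.

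Chromosomes differed far more at day 14 than in the morula. Across the 29 autosomes, day 14 density ran from 81.1 to 318 peaks per Mb with a median of 151, and morula density from 24.8 to 42.5 with a median of 33.2. The ratio of day 14 to morula peak numbers lay between 2.26 and 11.4. It was highest on chromosome 25 (12742 day 14 and 1119 morula peaks), chromosome 19 (20339 and 1990, a ratio of 10.2) and chromosome 13 (16424 and 2324, a ratio of 7.07). On the autosomes it was lowest on chromosome 9 (8575 and 3796) and chromosome 6 (9970 and 4246, a ratio of 2.35). The ranks of both densities had a Spearman coefficient of -0.125 over the 29 autosomes, each of which contributes 1 value from each merged list.

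The X chromosome stood below all autosomes, with 3815 day 14 peaks and 3785 morula peaks, a ratio of 1.01. X held 1.02% of the day 14 list (interval 0.992% to 1.06%) and 4.26% of the morula list (interval 4.13% to 4.39%), so its share of the list was 0.240 times as large at day 14 as in the morula. Among the other lists X held 6.71% of the GV oocyte, 7.26% of the MII oocyte, 4.40% of the 2-cell, 4.58% of the 4-cell, 3.26% of the 8-cell, 2.88% of the 16-cell and 2.17% of the in vivo morula peaks. The blastocyst and in vivo blastocyst lists stood highest, at 10.7% and 9.43%, and the day 14 list lowest of all 11. Broad peaks on X numbered 1196 at day 14 and 3114 in the morula, a ratio of 0.384. For broad peaks the autosomes ranged from 0.698 on chromosome 9 to 4.81 on chromosome 25, so on chromosomes 1, 4, 6, 9 and 12 too the day 14 list had fewer broad peaks than the morula list. The sex of the pooled embryos is not given, and its part in the X values was not tested.

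The share of morula peaks with a partner followed the day 14 density. More day 14 peaks make an overlap easier wherever a morula peak lies. The share of morula peaks with a day 14 peak was 75.4% on chromosome 19, 73.9% on chromosome 25 and 69.3% on chromosome 18, and 34.0% on chromosome 6, 34.7% on chromosome 9 and 30.5% on X, against 45.8% for all morula peaks. Over the 29 autosomes its ranks and those of the percentage of the chromosome covered by day 14 peaks had a Spearman coefficient of 0.952. Conversely the share of day 14 peaks with a morula peak ran from 6.83% on chromosome 25 to 17.4% on chromosome 9, and was 34.4% (interval 32.9% to 35.9%) on X, against 12.3% for all day 14 peaks. Over the 29 autosomes its ranks and those of day 14 density had a Spearman coefficient of -0.770. More day 14 peaks also raise the total of which this share is taken. On chromosomes 18, 19 and 25, which are gene-dense in cattle, 59.5% of morula peak bases lay in day 14 peaks, which covered 10.5% of these chromosomes. On the other autosomes 32.2% of morula peak bases did, with 4.47% covered, and on X 20%, with 0.862% covered. Relative to coverage the order was reversed, at 5.68 times on chromosomes 18, 19 and 25, 7.21 times on the other autosomes and 23.2 times on X. This ratio has a lower ceiling where more is covered, and on chromosomes 18, 19 and 25 the ceiling lies below the value on X. The reversal is therefore partly built in.

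**Figure D4:**
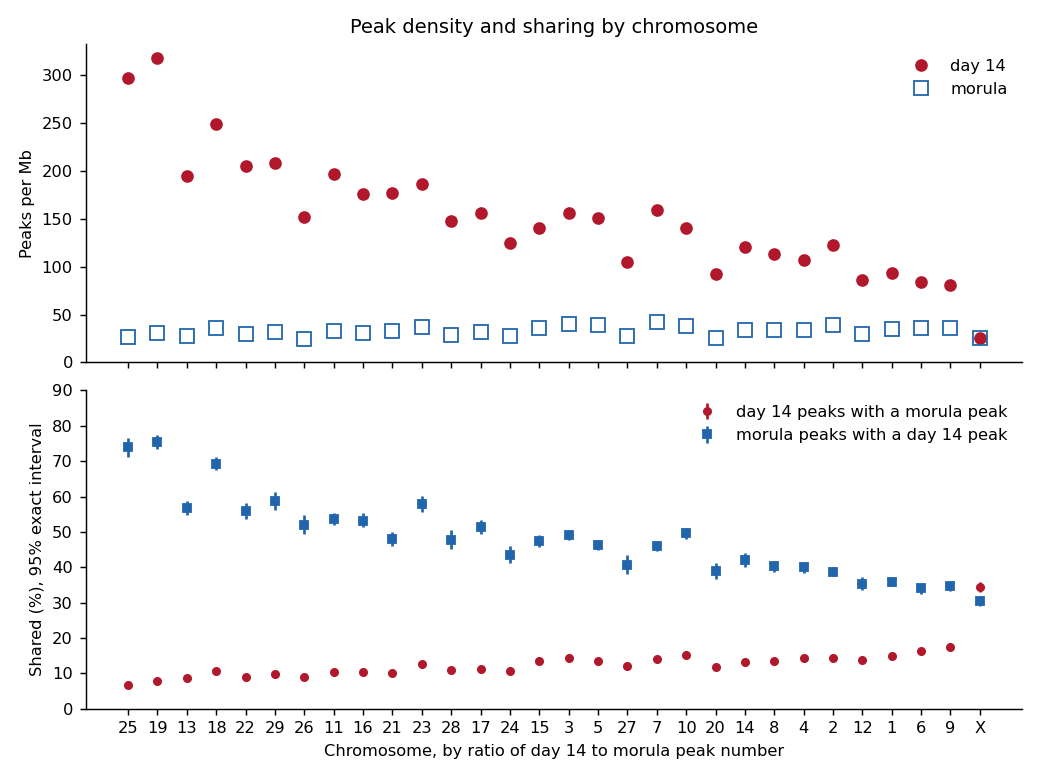
Peaks per Mb of the day 14 and morula lists by chromosome (upper panel), and the percentage of day 14 and of morula peaks that are shared with 95% exact intervals (lower panel), with chromosomes ordered by the ratio of day 14 to morula peak number. Day 14 density drops from left to right, to 25.6 peaks per Mb on X, while morula density stays between 24.8 and 42.5, and X is where the day 14 and morula values come together.

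In windows of 1 Mb the day 14 peaks were more unevenly spread. The fullest 267 windows held 33.8% of the day 14 peaks and 21.5% of the morula peaks. The 90th percentile of peaks per window was 18.8 times the 10th at day 14 and 4.38 times in the morula. Day 14 had a median of 89 and a highest value of 832 peaks per window, and the morula 30 and 147. Of the 2646 windows with at least 20 peaks in both lists together, 367 (13.9%) are here called day 14-rich. Their share of the day 14 list was at least 2 times their share of the morula list. In 955 (36.1%), here called day 14-poor, it was at most 0.5 times. Day 14-poor windows had a median of 31 day 14 and 28 morula peaks, against 91 and 30 in all tested windows. Peaks per window in the 2 lists had a Spearman coefficient of 0.516 over these windows, which share the chromosome map and 1 merged list on each side. With broad peaks alone, 348 of 2219 windows (15.7%) were day 14-rich and 880 (39.7%) day 14-poor, and 279 and 652 of them were so with all peaks too.

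Day 14-rich windows were common on chromosome 25 (30 of 43, 69.8%) and chromosome 19 (42 of 64, 65.6%), against 13.9% of all windows. On X 121 of 130 windows (93.1%) were day 14-poor and none was day 14-rich, and on chromosome 6 84 of 120 (70.0%) were day 14-poor, against 36.1% of all windows. Windows on chromosome 25 were never day 14-poor. The windows with the highest ratios lay on chromosome 25 from 23 to 24 Mb (69 day 14 peaks and 1 morula peak) and from 31 to 32 Mb (57 and 1), on chromosome 26 from 51 to 52 Mb (390 and 8, all 8 of them shared), on chromosome 14 from 4 to 5 Mb (421 and 10) and on chromosome 16 from 51 to 52 Mb (715 and 18, all 18 shared). The first 2 rest on a single morula peak. The 5 lowest were all on X, and in the window from 122 to 123 Mb the day 14 list had 0 and the morula list 27 peaks. Among autosomes, chosen after the values were seen, the lowest were chromosome 7 from 87 to 88 Mb (6 day 14 and 21 morula peaks, none shared) and chromosome 2 from 53 to 54 Mb (18 and 61, with 5 of the morula peaks shared).

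The other lists had no part in choosing these windows, and their shares are read against the 13.9% and 36.1% of windows that were day 14-rich and day 14-poor. Day 14-rich windows held 32.9% of the day 14 list and 11% of the morula list, and day 14-poor windows 10.3% and 33.8%. The GV oocyte list had 25.6% of its peaks in day 14-rich and 16.3% in day 14-poor windows, the 2-cell list 20.7% and 22.3%, the MII oocyte list 16.4% and 27.7%, and the 4-cell list 15.4% and 26.0%. In these 4 lists, as at day 14, the first share was above and the second below that of the windows. For the first share the distance was small in the MII oocyte list, which has 730 peaks, and in the 4-cell list. No interval was computed for the shares in this paragraph. The 8-cell list had 12.5% and 30.9%, the 16-cell list 13.1% and 29.4%, and the in vivo morula list 10.6% and 30.3%, with both shares below those of the windows, as in the morula list. The blastocyst list had 9.33% and 40.6% and the in vivo blastocyst list 5.10% and 48.6%. In both the second share was above that of the windows. X supplied 121 of the 955 day 14-poor windows and held 10.7% and 9.43% of these blastocyst peaks. Its part in the shares was not tested.

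Sharing within windows again rose with the number of day 14 peaks in them. The windows were ranked by the same day 14 peaks that count as partners, so part of this rise is built in. In the 20% of windows poorest in day 14 peaks (30 or fewer), 14.7% of morula peaks (interval 14.0% to 15.4%) were shared, and in the richest (233 or more) 71.4% (interval 70.8% to 72.0%). Day 14 peaks covered 0.464% of the poorest windows and 13.6% of the richest. The share of morula peak bases inside day 14 peaks was 8.69% and 54.1%. Relative to the part of the windows covered by day 14 peaks the order was reversed, at 18.7 times in the poorest and 3.97 times in the richest. This ratio has a lower ceiling where more is covered, and in the richest windows the ceiling lies below the value of the poorest. The reversal is therefore partly built in as well. Over all morula peaks, presence at the 16-cell stage was 29.6% in the poorest and 44.4% in the richest windows. Within the classes it differed less, at 50.2% for shared and 26.0% for unshared morula peaks in the poorest windows, and 51.8% and 25.8% in the richest.

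Along the autosomes, which in cattle have their centromere at or near the start, day 14 peaks were denser toward the far end. When each autosome was divided into 10 equal stretches, the last held 18% of the autosomal day 14 peaks and 11% of the morula peaks, and the first 8.45% and 7.63%. The last 5 Mb of each autosome, 5.77% of their length, held 11.1% of day 14 peaks (interval 11% to 11.2%) and 6.01% of morula peaks (interval 5.85% to 6.17%). Morula peaks in the last stretch were shared in 57.9% of cases, against 39.7% in the fourth.

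**Figure D5:**
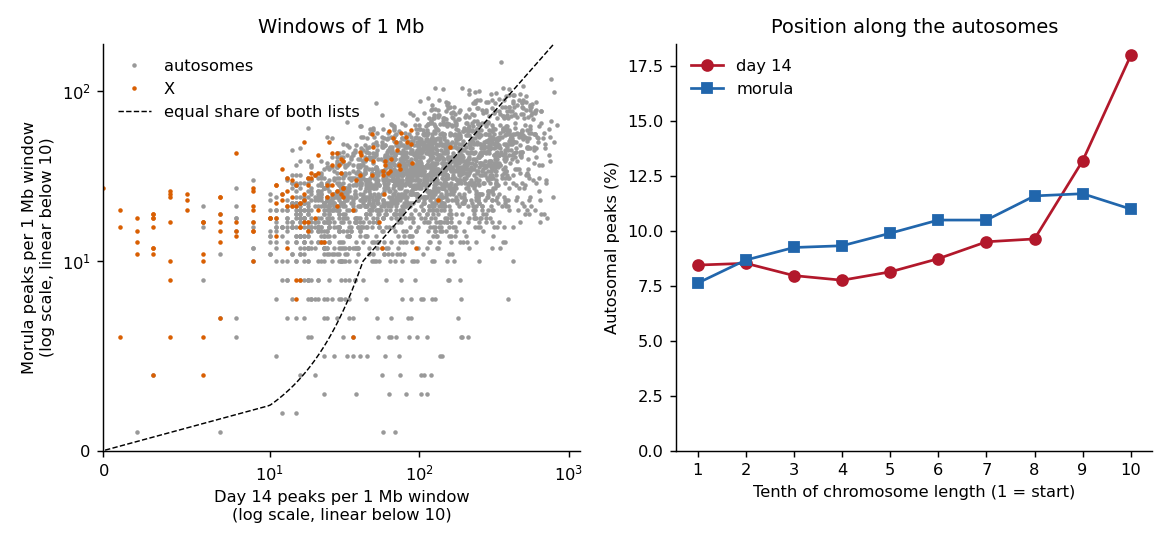
Left, day 14 peaks (x axis) and morula peaks (y axis) per 1 Mb window (both axes log scale, linear below 10), with X windows in colour and a dashed line where a window holds an equal share of both lists; most X windows lie above the line. Right, percentage of autosomal peaks in each of 10 equal stretches of chromosome length, where day 14 reaches 18% in the last and the morula 11%.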

How the data were processed

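Each group has 1 deposited list of peak positions, and columns for chromosome, start and end are all it holds, so its unit is other than a count or signal. The authors merged a stage's peaks over its libraries, per the series description. Bowtie2 2.3, MACS2, bedtools and HOMER appear in the submitters' processing notes, with build UMD3.1. Thresholds, the merging rule and any transposase shift are not stated in the sources at hand, and each can change peak number and width. Starts were read as counting from 0 and are printed counting from 1. Of the 6 morula libraries 4 carry letters and 2 carry numbers in their names, and the list cannot be split by library.

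Overlaps of at least 1 bp, widths, densities (chromosome length being the highest position in the 11 lists) and windows by peak centre were computed with Python 3.11.15, numpy 2.4.6 and scipy 1.17.1. Overlap counts were tested on 10 simulated pairs of lists, all recovered, and 21 of 21 real counts equalled those of bedtools 2.31.1. Figures used matplotlib 3.10.9. Named regions followed a rule (the widest peaks, the longest overlaps, most partners, extreme windows and chromosomes). Members, lists and rules were chosen with earlier results of these data known. The gene table at hand is of another assembly and was not used. Alternatives were broad peaks alone (no narrower than the series median), 50% of both peaks shared, widening by 250 bp, joining under 500 bp, the widest day 14 peaks in the morula's number, windows of 0.5 and 2 Mb, and leaving out recurring regions. Recurring means found in 2 or more of the 6 short lists, namely both oocyte, the 2-cell, the 4-cell and both blastocyst lists. Autosomes only was added after seeing the data.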

Additional observations from a re-analysis of the deposited data

How the results depend on the processing

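No paired analysis was possible because each group was deposited as 1 merged list and no result comes from a test, and leaving out single libraries was not possible for the same reason. The peak number ratio, the difference in 16-cell presence and the ratio of X shares kept their direction under each alternative they were run with. The overlap shares and the window counts have no direction that could turn. The overlap shares of the day 14 and morula lists were 12.3% and 45.8%, and 30.6% and 30.4% with lists of equal number. Where most overlaps join 1 peak with 1 peak, equal numbers bring the 2 shares close together by construction. Day 14 to morula peak number was 4.19 times, and 1.52 with broad peaks alone, 3.54 with peaks joined, 4.23 without recurring regions and 4.33 on autosomes. The share of day 14 peaks with a morula peak was 12.3%, and 24.8% with broad peaks alone, 4.84% with 50% of both peaks shared, 15.7% with peaks widened, 13.7% with peaks joined, 30.6% with the 88858 widest day 14 peaks (374 bp or more), 12% without recurring regions and 12% on autosomes. The share of morula peaks with a day 14 peak was 45.8%, and in the same order 36.3%, 20.3%, 52.9%, 47.1%, 30.4%, 45.1% and 46.5%. The difference in 16-cell presence between shared and unshared morula peaks was 25.6 percentage points, and 28.1, 22, 21.4, 27.2, 29.5 and 24.8 under the first 6 of these, and it stayed within its interval on autosomes (25.5). The ratio of X shares was 0.240, and 0.252 with broad peaks alone, 0.265 with peaks joined and 0.264 with the widest day 14 peaks. Windows of 0.5 Mb gave 821 day 14-rich and 1442 day 14-poor windows of 4617 tested, and windows of 2 Mb 164 and 480 of 1341, since the number of windows itself changes. The cause of the other shifts was not tested. Depth is unknown, so a peak missing from a list is not shown to be closed chromatin.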

Other observations

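Values along X varied between 10 Mb stretches, which were set out after the X total was seen. Day 14 had fewer peaks than the morula between 110 and 120 Mb (100 against 260) and between 120 and 130 Mb (121 against 276), where 13.8% and 11.2% of the morula peaks were shared. Day 14 had more between 30 and 40 Mb (497 against 260, with 53.8% of the morula peaks shared) and between 140 and 150 Mb (423 against 220, with 30.9% shared). On X, as on the autosomes, shared morula peaks were more often present at the 16-cell stage than unshared ones, at 49.7% against 23.7% on X and 51.4% against 25.9% on the autosomes.

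In the in vivo morula list, 1.96% of the day 14-only peaks (interval 1.91% to 2.00%) and 54.9% of the shared day 14 peaks had a peak. Of the morula-only peaks 22.8% (interval 22.4% to 23.1%) and of the shared morula peaks 56.7% did, and of all morula peaks 34045 of 88858. Among the widest unshared peaks the shares were 4.85% at day 14 (420 bp or more) and 69.5% in the morula (1053 bp or more), at unlike widths. The in vivo morula list is of the same stage as the list that split the day 14 peaks. The low shares of day 14-only peaks are therefore partly built in.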
